A study of Mus musculus with 6 samples.

Results

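The genes described here are 40 interferon-stimulated genes, which cells switch on when interferon binds its receptors, followed in mouse alveolar organoid cells grown under 3 culture conditions in each of 2 lines. They were chosen by symbol from a list of known interferon targets, with no measured value in the rule, and make up 40 of the 23224 genes in the table. All 40 had enough counts to be tested, among 14416 tested genes. The cells carried the Sftpc-eGFP genotype, a green reporter named for the surfactant gene Sftpc, in every group. They were kept in Matrigel drops at 90% in a medium named FNHCS until the treatment, which lasted 7 days. For 2D FBS the cells were spread flat, and their medium was Ad-DMEM F/12 containing 10% FBS (fetal bovine serum). In 2D FNHCS they lay flat in FNHCS medium. In 3D FNHCS, the control, they stayed in the drops in FNHCS medium. Lines SN3593 and SN3595 each gave 1 library per condition, from polyA RNA of cells detached with TrypLE. No added interferon or other stimulus of these genes is named in the labels. The composition of FNHCS, the origin of the lines from separate animals, and any sort on eGFP are not stated in the labels. With 1 library per line and condition, a line cannot be told apart from the culture and handling of its libraries, and p-values measure only the spread between these samples.

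Interferons are secreted proteins that warn neighbouring cells of infection. Type I interferons bind IFNAR1 with IFNAR2, and type III interferons, which act mainly on epithelium, bind IFNLR1 with IL10RB. Both activate the kinases JAK1 and TYK2, which phosphorylate STAT2. STAT2 and IRF9 belong to a complex, ISGF3, that binds the interferon-stimulated response element in the promoters of its targets. Type II interferon acts through its own receptor on another motif, the gamma-activated site. The products sense foreign nucleic acid, block translation or degrade viral RNA, modify proteins with ISG15, and cut and load peptides for MHC class I. The pathway amplifies itself, since Irf7, Irf9 and Stat2 are themselves induced. Epithelial cells, alveolar type 2 cells among them, also hold a low level of these genes with no infection.

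The response element is visible in the sequence of many of these promoters. RefSeq promoters (build GRCm38.p6, 250 bases before to 50 after the start of the gene) were at hand for 31 of the 40 genes. The core of the element was searched on both strands as GAAA and again GAAA with 2 bases of any kind between, and 14 of the 31 genes (45.2%) held it, against 3.99% of the 27025 genes in the promoter table. The gamma-activated site, searched as TTCNNNGAA on both strands, was in 8 of the 31 (25.8%), against 9.55% of all genes; the motifs can overlap. A match is a string of letters, not a measured site, and a promoter without one may be bound elsewhere. The stretches below carry the element upstream of genes whose levels are given further on, and are read 5′ to 3′ along the gene's own strand; capitals mark the matches, which read TTTC first where the element lies on the opposite strand.
Isg15 (chr4:156200855-156200916, minus strand): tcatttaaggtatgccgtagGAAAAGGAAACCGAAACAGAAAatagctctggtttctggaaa
Ifit1 (chr19:34640765-34640833, plus strand): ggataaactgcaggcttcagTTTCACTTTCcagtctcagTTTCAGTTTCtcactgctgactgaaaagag
Ifit3 (chr19:34583353-34583436, plus strand): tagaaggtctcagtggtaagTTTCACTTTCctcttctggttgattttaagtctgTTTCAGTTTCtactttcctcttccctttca
Oas1a (chr5:120907526-120907565, minus strand): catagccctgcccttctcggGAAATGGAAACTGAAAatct
Gbp3 (chr3:142559979-142560034, plus strand): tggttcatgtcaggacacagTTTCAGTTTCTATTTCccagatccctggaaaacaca
Bst2 (chr8:71537567-71537622, minus strand): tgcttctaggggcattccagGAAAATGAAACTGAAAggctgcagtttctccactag
Rsad2 (chr12:26456543-26456592, minus strand): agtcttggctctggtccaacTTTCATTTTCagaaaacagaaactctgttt
Stat2 (chr10:128270256-128270305, plus strand): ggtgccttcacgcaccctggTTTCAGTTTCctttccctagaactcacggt

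Isg15 holds 3 overlapping matches in a single run, Oas1a, Gbp3 and Bst2 hold 2 that overlap, and Ifit1 and Ifit3 hold 2 that stand apart. Rsad2 and Stat2 hold 1 each. Several of the 40 genes also sit side by side on the chromosome. Rsad2 and Cmpk2 on chromosome 12, Psmb9, Tap1 and Psmb8 on chromosome 17, Ifit2 and Ifit3 on chromosome 19, and Oas2 and Oas3 as well as Oasl1 and Oasl2 on chromosome 5 are direct neighbours among protein-coding genes.

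The libraries held between 33634368 and 43334665 expected counts, which are read numbers estimated per gene. Levels are given as CPM, counts scaled to a common library total with TMM factors, and are comparable between libraries but not between genes of unequal length. The samples carried epithelial markers in every library, with Epcam between 287 and 691 CPM. The summed level of 8 AT2 markers was 619 CPM in SN3593 and 451 in SN3595 in 2D FBS, against 53617 in SN3593 and 43589 in SN3595 in 2D FNHCS, and 46647 in SN3593 and 63414 in SN3595 in 3D FNHCS. The 7 AT1 markers summed to 11483 CPM in SN3593 and 15346 in SN3595 in 2D FBS, to 3637 in SN3593 and 8862 in SN3595 in 2D FNHCS, and to 2359 in SN3593 and 1790.4 in SN3595 in 3D FNHCS. Titles call the libraries typI in 2D FBS, AT2_AT1 in 2D FNHCS and typII in 3D FNHCS. Sftpc, which made up most of the AT2 sum, was not called in 2D FNHCS against 3D FNHCS, but 6 of the 8 AT2 markers fell there, among them Sftpa1 by 3.28 on the log2 scale (SE 0.42, edgeR adjusted p = 0.00864), with a median of -2.31. All 7 AT1 markers lay above 0 in that comparison, with a median of 2.74, and 1 of them, Ager, rose by 3.59 (SE 0.50, edgeR adjusted p = 0.00993). Levels of AT2 and AT1 markers thus moved with serum and also within FNHCS. They differed between the lines as well. The AT1 sum was lower in SN3593 than in SN3595 in 2D FBS and 2D FNHCS and higher in 3D FNHCS. The AT2 sum lay the opposite way in each condition. What part these markers had in the levels below was not tested. Markers of endothelium (5 genes) summed to at most 0.621 CPM and those of fibroblasts (7 genes) to at most 2.41 CPM in any library, and Cldn5 was at 0 in all 6. The 12 leukocyte markers summed to 11.9 CPM in SN3593 and 26.2 in SN3595 in 2D FBS, to 70.0 in SN3593 and 134 in SN3595 in 2D FNHCS, and to 136 in SN3593 and 1599.9 in SN3595 in 3D FNHCS. In the FNHCS libraries most of this was Lyz2, which AT2 cells also express and which was at 100.2 CPM in SN3593 and 1566 in SN3595 in 3D FNHCS. Without Lyz2 and Cd68 the sum was 4.80 CPM in SN3593 and 9.19 in SN3595 in 2D FBS. It was 5.51 in SN3593 and 5.66 in SN3595 in 2D FNHCS, and 15.5 in SN3593 and 13.9 in SN3595 in 3D FNHCS. In 3D FNHCS most of that was Ly6c2, at 14.7 CPM in SN3593 and 13.6 in SN3595. Cd68 was at 20.5 CPM in SN3593 and 19.7 in SN3595 there. Single markers differed by line in 2D FNHCS, where Csf1r was at 0.570 CPM in SN3593 and 2.28 in SN3595. Ptprc, Itgam, Siglech, Ly6c2 and Cd68 lay the other way in 2D FNHCS. The part of leukocytes in the levels below was not tested. Itgax was at 0 in all libraries, and Ptprc lay between 0.127 and 0.828 CPM. In bulk RNA, fewer cells making a transcript and less of it per cell cannot be told apart.

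In FNHCS medium, flat or in drops, nearly all of the 40 were lower in SN3593 than in SN3595, and in serum the lines were closer. The summed level of the 40 genes was 714 CPM in SN3593 and 912 in SN3595 in 2D FBS. In 2D FNHCS it was 683 CPM in SN3593 and 1648 in SN3595. In 3D FNHCS it was 756 CPM in SN3593 and 1581 in SN3595. The SN3593 libraries thus spanned 683 to 756 CPM over all 3 conditions, while the serum library of SN3595 lay far below both of its FNHCS libraries. The median gene was at 5.67 CPM in 2D FBS, 5.63 in 2D FNHCS and 7.72 in 3D FNHCS in SN3593, and at 8.17 in 2D FBS, 26.9 in 2D FNHCS and 33.1 in 3D FNHCS in SN3595.

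**Figure D1:**
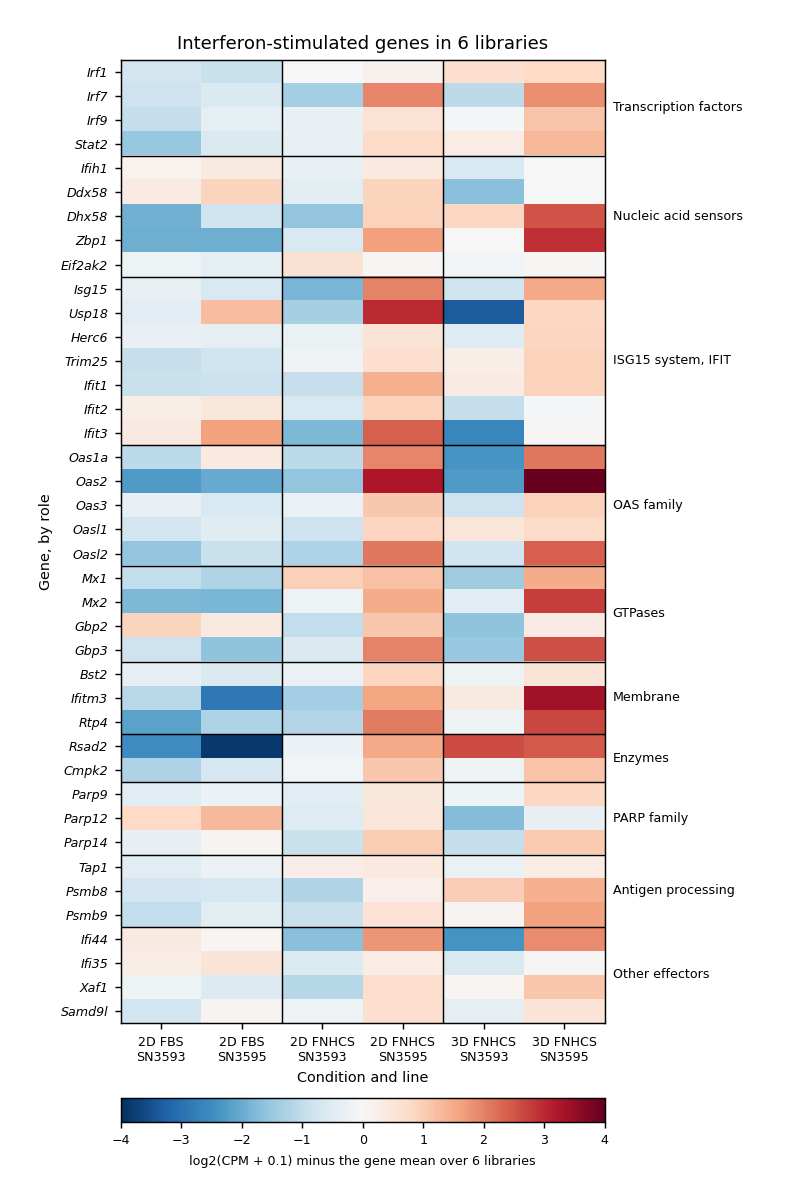
Level of each of the 40 genes (rows, grouped by role) in each of the 6 libraries (columns), as log2(CPM + 0.1) minus the gene's mean over the 6 libraries; red is above and blue below that mean. Most genes are red in the SN3595 libraries of 2D FNHCS and 3D FNHCS and pale or blue in the SN3593 libraries, while Irf1 is alike in both lines, Irf1 and Rsad2 are lowest in 2D FBS, and Parp12 is highest there.

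Set against SN3595 in the same condition, SN3593 had 4 of the 40 genes at least 2-fold lower in 2D FBS, where 3.25% of all genes tested were, 29 in 2D FNHCS (6.06% of all genes) and 26 in 3D FNHCS (4.69% of all genes). In the other direction, Ifitm3 and Rsad2 were at least 2-fold higher in SN3593 in 2D FBS (7.37% of all genes), and none of the 40 was in 2D FNHCS (10.5% of all genes) or in 3D FNHCS (6.19% of all genes). The median log2 ratio of SN3593 to SN3595 over the 40 genes was -0.22 in 2D FBS, -1.66 in 2D FNHCS and -1.47 in 3D FNHCS, beside medians over all genes of 0.00 in 2D FBS, -0.02 in 2D FNHCS and -0.04 in 3D FNHCS. The gap between the lines was smallest in 2D FBS for 33 of the 40 genes (82.5%), against 36.6% of all genes. Among the 33 were Zbp1, Mx2 and Oas2, with both serum libraries at or under 3 counts, so their gap in serum was not measurable. Gbp3 was also among them, with 7 counts in SN3593 and 3 in SN3595 in serum. The log2 ratio lay below 0 in all 3 conditions for 25 of the 40 (62.5%), Oas2 among them, against 23.8% of all genes. In the FNHCS conditions 39 of 40 were lower in SN3593; the exceptions were Eif2ak2 in 2D FNHCS and Rsad2 in 3D FNHCS. These ratios come from 1 library on each side and have no test.

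**Figure D2:**
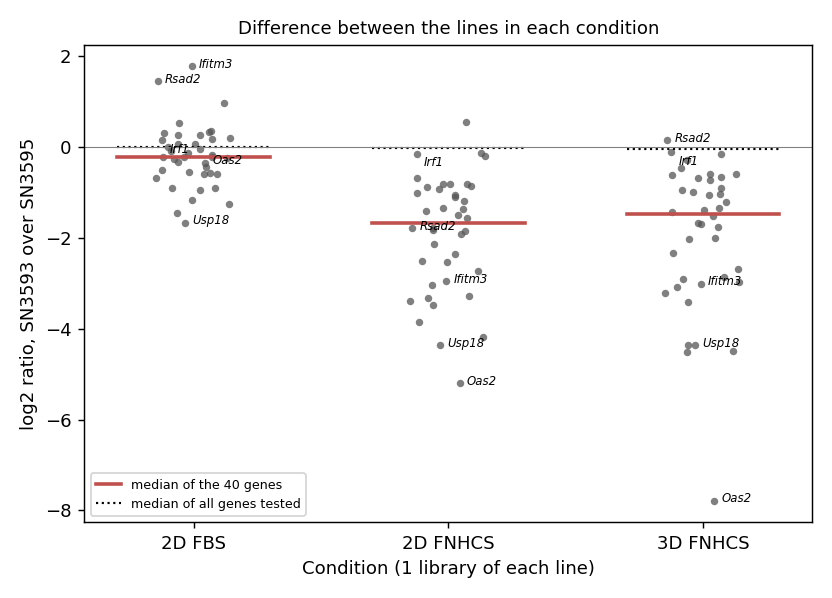
Log2 ratio of the SN3593 to the SN3595 library for each of the 40 genes (grey points) in 2D FBS, 2D FNHCS and 3D FNHCS, with the median of the 40 genes in red and of all genes tested dotted; 2 counts were added before the ratio, so points of very low genes such as Oas2 depend on that number. The red median lies at -0.22 in 2D FBS, -1.66 in 2D FNHCS and -1.47 in 3D FNHCS; the dotted one is near 0 in each.

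A test of the lines over all 3 conditions, with condition as a further term in edgeR's quasi-likelihood test, gave the same direction for 39 of the 40 genes and passed for 0 of them after Benjamini-Hochberg adjustment over all genes at 0.05. Its median log2 fold change, SN3593 over SN3595, was -1.0 for the 40 genes and -0.01 for all genes. Only Gm19990, a predicted gene outside the list, passed among all genes tested (0.00694%). At an unadjusted p under 0.05 there were 23 of the 40, all lower in SN3593, where 9.77% of all genes were lower at that p and 8.82% higher. DESeq2 called 19 of the 40, all lower, beside 747 genes in all, and limma-voom called 0 of the 40. The lowest adjusted p values among the 40 were those of Samd9l, at a log2 fold change of -0.91 ± 0.10 (SE, edgeR adjusted p = 0.102), and Stat2, at -1.02 ± 0.13 (SE, edgeR adjusted p = 0.103). For 5 genes, Irf7, Usp18, Oas1a, Parp14 and Samd9l, every SN3593 library was below every SN3595 library, which held for 3.63% of all genes. Whether the gap in serum differed from that in FNHCS was asked of a further fit with the line difference in 2D FBS as its own term, chosen after these values were seen and left with 1 residual degree of freedom. It called 0 of the 40 genes and 0 of all genes, with 18 of the 40 at an unadjusted p under 0.05, all of them with a smaller or reversed gap in serum, the direction in which 3.63% of all genes lay at that p (5.29% either way). The lowest adjusted p was that of Ifitm3, whose log2 ratio of SN3593 to SN3595 was greater by 4.79 ± 0.27 (SE) in serum than in FNHCS (edgeR adjusted p = 0.355).

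Serum against FNHCS in flat culture addresses the change of medium. Within SN3595, 25 of the 40 genes were at least 2-fold lower in 2D FBS than in 2D FNHCS, where 11.8% of all genes were, and 0 were at least 2-fold higher (9.81% of all genes). Within SN3593, 6 were at least 2-fold lower (15.6% of all genes) and 5 at least 2-fold higher (13.2% of all genes). Scaled by library size alone the counts in SN3593 were 13 lower and 4 higher, where 32.9% of all genes passed 2-fold either way. The median log2 ratio of 2D FBS to 2D FNHCS was -0.03 in SN3593 and -1.41 in SN3595. The ratio was lower in SN3595 than in SN3593 for 37 of 40 genes (92.5%), against 50.4% of all genes. For 16 genes the lines pointed opposite ways, each time above 0 in SN3593 and below 0 in SN3595.

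**Figure D3:**
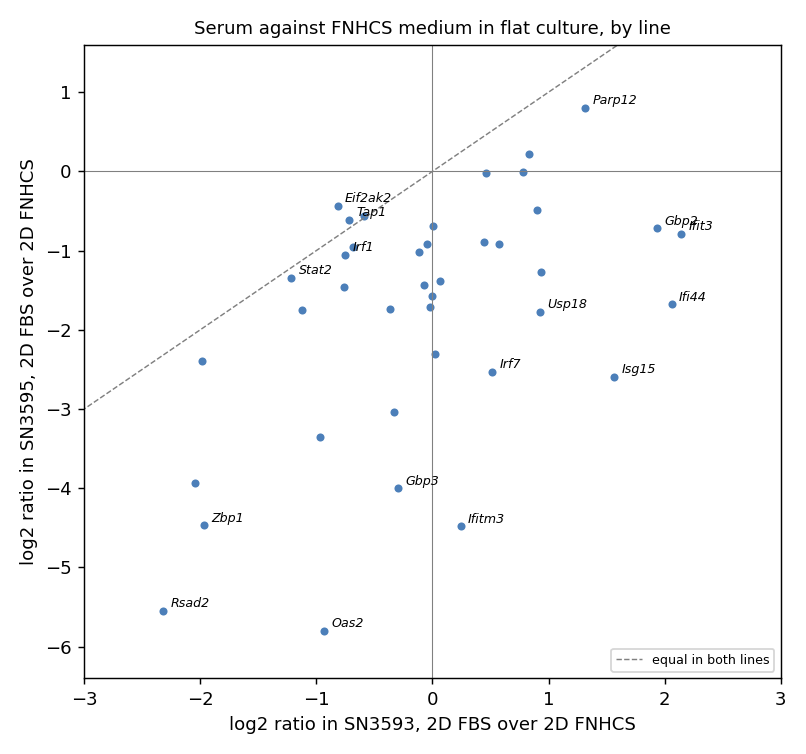
Log2 ratio of 2D FBS to 2D FNHCS for each of the 40 genes in SN3593 (horizontal) and in SN3595 (vertical), 1 library per side in each; the dashed line marks equal ratios. The points lie below the dashed line for 37 of the 40 genes, and the lower right field holds those above 0 in SN3593 and below 0 in SN3595, such as Isg15 (1.57 and -2.59) and Ifi44 (2.06 and -1.68).

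Over both lines, edgeR called 2 of the 40 genes lower in 2D FBS than in 2D FNHCS (4.77% of all genes) and 0 higher (5.85% of all genes), which is 2 of 40 where 10.6% of all genes were called either way. They were Irf1 and Rsad2. A further 8 had an unadjusted p under 0.05, all lower in 2D FBS, which makes 10 of 40 beside 14.4% of all genes, and 34 of the 40 fold changes were below 0, with a median of -0.93 on the log2 scale beside -0.06 for all genes. With the lines, which are the same in each condition, as a replicate block, 12 of 40 were called, where 18.7% of all genes were. Of these 11 were lower (8.41% of all genes) and 1, Parp12, was higher (10.3% of all genes). The 11 were Irf1, Irf9, Stat2, Zbp1, Trim25, Oas2, Mx2, Rsad2, Cmpk2, Tap1 and Samd9l. Leaving out either 2D FBS library brought the unblocked calls to 0 of the 40, and leaving out the SN3595 library of 2D FNHCS brought them to 1.

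Serum in flat culture and drops in FNHCS differ in medium, geometry and the stated Matrigel, and this comparison gave the most calls. Of the 40 genes 8 were lower in 2D FBS than in 3D FNHCS (20.6% of all genes) and 1 was higher (19.9% of all genes), so that 9 of 40 stood beside 40.5% of all genes called either way. The genes that fell were Irf1, Stat2, Dhx58, Zbp1, Trim25, Mx2, Rsad2 and Psmb8, and the gene that rose was Parp12. The median log2 fold change was -1.32, beside -0.03 for all genes, and 32 of the 40 lay below 0. Within SN3595, 28 genes were at least 2-fold lower (21.5% of all genes) and 2 at least 2-fold higher (18.7% of all genes), with a median of -1.70. Within SN3593, 14 were at least 2-fold lower (20.9% of all genes) and 8 at least 2-fold higher (19.7% of all genes), with a median of -0.15. With the replicate block 18 of 40 were called, where 49.3% of all genes were. Of these 14 were lower (25.0% of all genes) and 4 higher (24.4% of all genes), Ddx58, Ifi35, Ifit3 and Parp12. Leaving out 1 library brought the 9 calls to 3 without the 3D FNHCS library of SN3595 and to 2 without either 2D FBS library, while Irf1 and Rsad2 remained called in all of these.

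Flat culture in FNHCS against drops in the same medium addresses geometry together with the Matrigel around the cells, which is stated for the drops and not for flat culture. AT2 and AT1 markers moved in this comparison too, as given above. Irf1 was the gene called, as lower in 2D FNHCS (9.77% of all genes), and 0 were called higher (8.63% of all genes) by edgeR, DESeq2 or limma-voom, with 0 higher also at an unadjusted p under 0.05 (17.4% of all genes). That is 1 of 40, where 18.4% of all genes were called either way. The median log2 fold change was -0.05, beside 0.03 for all genes, and it was 0.08 beside 0.19 when scaled by library size alone. Within SN3593, 6 genes were at least 2-fold higher (14.7% of all genes) and 8 at least 2-fold lower (13.9% of all genes). By library size alone, 8 were higher and 7 lower, where 30.1% of all genes passed 2-fold either way. Within SN3595, 2 were at least 2-fold higher (13.2% of all genes) and 7 at least 2-fold lower (14.9% of all genes). By library size alone, 4 were higher and 6 lower, where 28.5% of all genes passed 2-fold either way. With the replicate block 6 of 40 were called, where 29.0% of all genes were. Of these 4 were lower (14.8% of all genes), Irf1, Stat2, Dhx58 and Psmb8, and 2 were higher (14.2% of all genes), Ddx58 and Parp12. Irf1 lost its call whenever any of the 6 libraries was left out, with edgeR adjusted p values from 0.0731 to 0.186.

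The transcription factors showed both patterns. Irf1, a factor that switches on antigen processing genes, differed by condition, with the lines close to each other. Irf1 was at 33.8 CPM in 2D FBS, 57.1 in 2D FNHCS and 89.9 in 3D FNHCS in SN3593, and at 30.4 in 2D FBS, 63.0 in 2D FNHCS and 97.5 in 3D FNHCS in SN3595. The conditions did not overlap in any comparison, and both lines gave nearly the same values. Irf1 fell by 0.64 on the log2 scale in 2D FNHCS against 3D FNHCS (SE 0.16, edgeR adjusted p = 0.0392). It fell by 0.90 in 2D FBS against 2D FNHCS (SE 0.16, edgeR adjusted p = 0.0244). In 2D FBS against 3D FNHCS it fell by 1.54 (SE 0.16, edgeR adjusted p = 0.00163).

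Stat2, the STAT that carries the transactivation domain of ISGF3, ranked the conditions in the same order as Irf1 but at a distance between the lines. SN3593 had Stat2 at 4.63 CPM in 2D FBS, 10.8 in 2D FNHCS and 16.3 in 3D FNHCS, while SN3595 had it at 8.89 in 2D FBS, 22.6 in 2D FNHCS and 33.8 in 3D FNHCS. SN3593 was below SN3595 in each condition, and the highest 2D FBS value lay below the lowest 2D FNHCS value. Stat2 fell by 1.89 on the log2 scale in 2D FBS against 3D FNHCS (SE 0.54, edgeR adjusted p = 0.0346). The same order held for Irf9, a DNA-binding subunit of ISGF3, in both lines. Irf9 levels in 2D FBS were 12.7 CPM in SN3593 and 19.2 in SN3595, in 2D FNHCS 20.4 in SN3593 and 37.2 in SN3595, and in 3D FNHCS 23.5 in SN3593 and 54.6 in SN3595. In 2D FBS its libraries lay below all others, yet no comparison of conditions passed without the replicate block. Irf7, the factor that amplifies type I interferon genes, was lower in SN3593 in each condition. Irf7 was at 6.98 CPM in 2D FBS, 4.87 in 2D FNHCS and 6.08 in 3D FNHCS in SN3593, and at 8.43 in 2D FBS, 49.0 in 2D FNHCS and 45.5 in 3D FNHCS in SN3595. The 2 FNHCS libraries of SN3595 stood apart from the other 4, and the log2 ratio of SN3593 to SN3595 was -0.27 in 2D FBS, -3.32 in 2D FNHCS and -2.90 in 3D FNHCS.

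**Figure D4:**
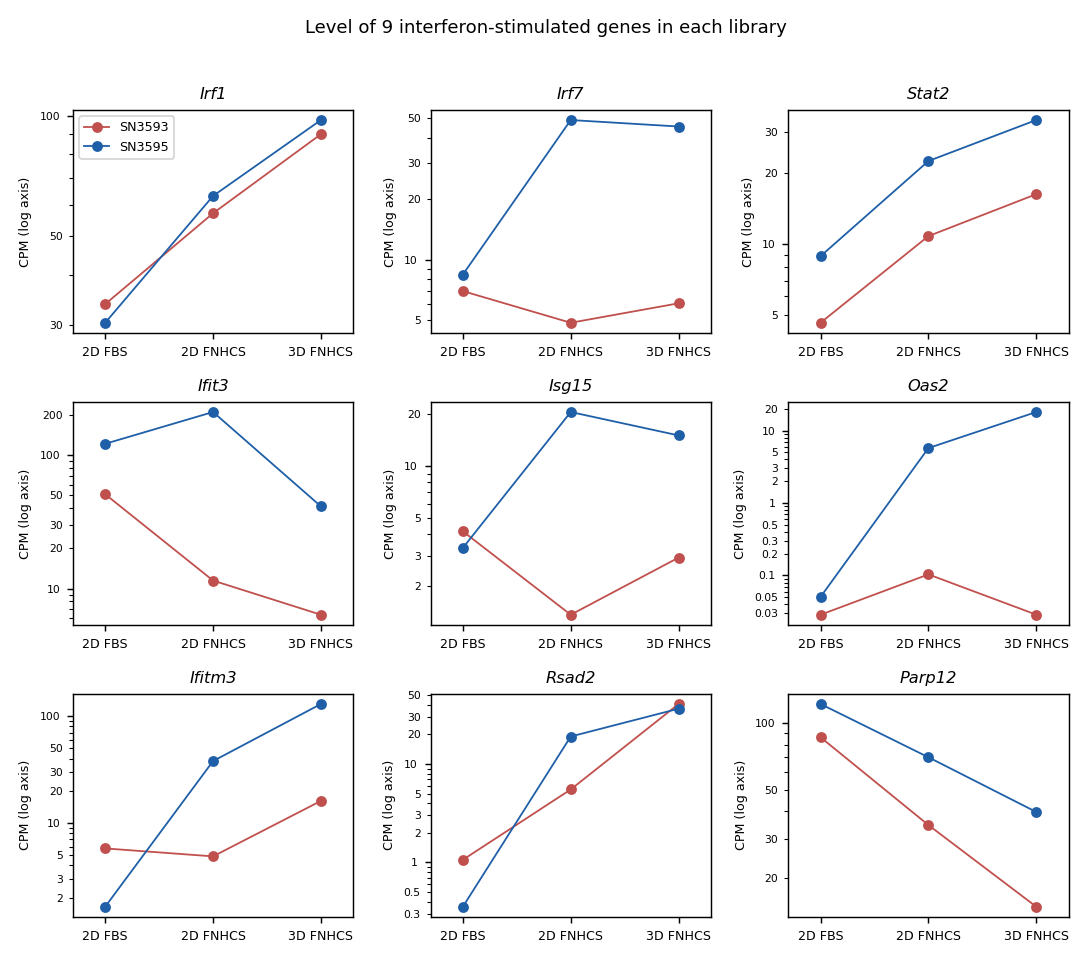
CPM on a log axis of Irf1, Irf7, Stat2, Ifit3, Isg15, Oas2, Ifitm3, Rsad2 and Parp12 in 2D FBS, 2D FNHCS and 3D FNHCS, 1 point per library, with SN3593 in red and SN3595 in blue; lines join the points of 1 line. Irf1 is close in both lines, Irf1 and Rsad2 are lowest in 2D FBS, Parp12 is highest there, and Irf7, Isg15, Oas2 and Ifitm3 differ between the lines in the FNHCS conditions more than in 2D FBS.

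Among the sensors, Dhx58 and Zbp1 fell in 2D FBS against 3D FNHCS, and the others were not called without the replicate block. Dhx58 encodes LGP2, a helicase that tunes the RNA sensors RIG-I and MDA5. Dhx58 was at 1.09 CPM in 2D FBS, 1.42 in 2D FNHCS and 7.95 in 3D FNHCS in SN3593, and at 2.53 in 2D FBS, 8.54 in 2D FNHCS and 25.8 in 3D FNHCS in SN3595. It was lowest in 2D FBS in both lines and fell by 3.21 on the log2 scale against 3D FNHCS (SE 1.0, edgeR adjusted p = 0.0448). Zbp1, a sensor of Z-form nucleic acid that can trigger cell death, was at 0 counts in both 2D FBS libraries. In 2D FNHCS it had 0.155 CPM in SN3593 and 1.13 in SN3595, and in 3D FNHCS 0.288 CPM in SN3593 and 2.84 in SN3595. Against a floor of 3 counts per library, Zbp1 over both lines was at least 19.3-fold lower in 2D FBS than in 3D FNHCS (edgeR adjusted p = 0.0394). By line this bound was 3.34-fold in SN3593 and 37.3-fold in SN3595. Against 2D FNHCS the bound was 7.90-fold over both lines, 1.80-fold in SN3593 and 14.8-fold in SN3595. In that comparison Zbp1 was called with the replicate block alone (edgeR adjusted p = 0.0210).

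Ddx58, which encodes RIG-I, and Ifih1, which encodes MDA5, had higher values in 2D FBS than in 3D FNHCS. SN3593 had Ddx58 at 54.6 CPM in 2D FBS, 31.8 in 2D FNHCS and 13.6 in 3D FNHCS, while SN3595 had it at 79.9 in 2D FBS, 80.4 in 2D FNHCS and 43.5 in 3D FNHCS. The 2D FBS libraries lay above both 3D FNHCS libraries, and the gene was called higher with the replicate block alone. Ifih1 levels in 2D FBS were 13.8 CPM in SN3593 and 16.0 in SN3595, in 2D FNHCS 10.0 in SN3593 and 16.2 in SN3595, and in 3D FNHCS 8.06 in SN3593 and 12.4 in SN3595. Its 2D FBS values also exceeded those of 3D FNHCS, by less than 2-fold in each line. Eif2ak2 encodes PKR, a kinase that halts translation when it meets double-stranded RNA. Eif2ak2 was at 45.4 CPM in 2D FBS, 80.1 in 2D FNHCS and 48.3 in 3D FNHCS in SN3593, and at 40.1 in 2D FBS, 54.3 in 2D FNHCS and 53.6 in 3D FNHCS in SN3595. It is the gene of the 40 that was higher in SN3593 in 2D FNHCS, with a log2 ratio to SN3595 of 0.56.

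The 7 genes of the ISG15 system and the IFIT family were lower in SN3593 than in SN3595 in both FNHCS conditions. Between the lines edgeR called 0 of them, with 4 lower in SN3593 at an unadjusted p under 0.05 (9.77% of all genes). Isg15 is a ubiquitin-like protein that is joined to other proteins, Herc6 is its ligase in mouse, and Usp18 removes it and also restrains the type I receptor. Isg15 was at 4.17 CPM in 2D FBS, 1.37 in 2D FNHCS and 2.94 in 3D FNHCS in SN3593, and at 3.34 in 2D FBS, 20.4 in 2D FNHCS and 14.9 in 3D FNHCS in SN3595. Only the FNHCS libraries of SN3595 exceeded 5 CPM. SN3593 had Usp18 at 2.36 CPM in 2D FBS, 1.22 in 2D FNHCS and 0.230 in 3D FNHCS, while SN3595 had it at 7.57 in 2D FBS, 26.0 in 2D FNHCS and 5.79 in 3D FNHCS. Each SN3593 library was below each SN3595 library, and in SN3595 the level was highest in 2D FNHCS. Herc6 levels in 2D FBS were 5.57 CPM in SN3593 and 5.32 in SN3595, in 2D FNHCS 5.75 in SN3593 and 10.1 in SN3595, and in 3D FNHCS 4.78 in SN3593 and 12.6 in SN3595. The libraries of SN3593 spanned less than 1 CPM, and those of SN3595 were higher in both FNHCS conditions than in serum. Trim25, a ubiquitin ligase that activates RIG-I, ranked the conditions alike in both lines. Trim25 was at 14.6 CPM in 2D FBS, 24.9 in 2D FNHCS and 33.1 in 3D FNHCS in SN3593, and at 16.0 in 2D FBS, 43.9 in 2D FNHCS and 53.0 in 3D FNHCS in SN3595. It fell by 1.49 on the log2 scale in 2D FBS against 3D FNHCS (SE 0.34, edgeR adjusted p = 0.0168).

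The IFIT proteins bind viral RNA that lacks the cap of host messages, and the genes resemble each other, so reads may be divided among them. Ifit3 was at 50.8 CPM in 2D FBS, 11.5 in 2D FNHCS and 6.36 in 3D FNHCS in SN3593, and at 121 in 2D FBS, 209 in 2D FNHCS and 41.2 in 3D FNHCS in SN3595. In SN3593 the 2D FBS library was the highest and the 3D FNHCS library the lowest, and in SN3595 the 2D FNHCS library was the highest. Its log2 ratio of 2D FBS to 2D FNHCS was 2.14 in SN3593 and -0.79 in SN3595. SN3593 had Ifit2 at 45.1 CPM in 2D FBS, 24.2 in 2D FNHCS and 19.1 in 3D FNHCS, while SN3595 had it at 50.6 in 2D FBS, 71.2 in 2D FNHCS and 35.8 in 3D FNHCS. The order of conditions differed between the lines here as for Ifit3. Ifit1 levels in 2D FBS were 7.70 CPM in SN3593 and 7.90 in SN3595, in 2D FNHCS 7.59 in SN3593 and 39.2 in SN3595, and in 3D FNHCS 18.2 in SN3593 and 27.3 in SN3595. SN3593 had its highest value in 3D FNHCS and SN3595 its highest in 2D FNHCS. None of the 3 was called in any comparison of conditions without the replicate block, and with it Ifit3 was higher in 2D FBS than in 3D FNHCS.

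The 5 OAS genes had a median log2 ratio of SN3593 to SN3595 of -0.34 in 2D FBS, -3.03 in 2D FNHCS and -3.21 in 3D FNHCS. The enzymes they encode make 2′-5′ oligoadenylates, which activate the ribonuclease RNase L; Oasl1 and Oasl2 are relatives, and Oas1a has near-identical copies among which reads may be divided. Oas2 was nearly silent in SN3593, with 1 count in 2D FBS, 4 in 2D FNHCS and 1 in 3D FNHCS. SN3595 had 2 counts (0.0506 CPM) in 2D FBS, 244 (5.73 CPM) in 2D FNHCS and 635 (18.0 CPM) in 3D FNHCS. In 3D FNHCS the level in SN3595 was 625 times that in SN3593, with an exact 95% counting interval of 112 to 24743. Within SN3595 the level in 3D FNHCS was 356 times that in 2D FBS (interval 98.1 to 2943). So the difference between the lines was not measurable in serum, where both libraries were at or under 3 counts. Over both lines Oas2 was called in 2D FBS against 3D FNHCS with the replicate block alone (edgeR adjusted p = 0.00847, against 0.0926 without it).

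The other 4 OAS genes were also higher in the FNHCS libraries of SN3595 than in any other library. Oas1a was at 3.56 CPM in 2D FBS, 3.57 in 2D FNHCS and 1.38 in 3D FNHCS in SN3593, and at 9.87 in 2D FBS, 29.6 in 2D FNHCS and 32.7 in 3D FNHCS in SN3595. SN3593 stayed below 5 CPM throughout. SN3593 had Oasl2 at 2.44 CPM in 2D FBS, 3.08 in 2D FNHCS and 4.23 in 3D FNHCS, while SN3595 had it at 3.95 in 2D FBS, 32.8 in 2D FNHCS and 39.7 in 3D FNHCS. In SN3593 the level moved little with the condition, and in SN3595 it was more than 8-fold lower in serum than in either FNHCS condition. Oas3 levels in 2D FBS were 4.34 CPM in SN3593 and 3.42 in SN3595, in 2D FNHCS 4.40 in SN3593 and 11.4 in SN3595, and in 3D FNHCS 2.94 in SN3593 and 10.0 in SN3595. Oasl1 was low, between 0.492 and 1.38 CPM in SN3593 and between 0.658 and 1.81 CPM in SN3595. None of the 5 passed between conditions without the block.

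Of the GTPases, Mx1 and Mx2 encode dynamin-like proteins that trap viral components, and Gbp2 and Gbp3 encode guanylate-binding proteins that attack intracellular microbes. Mx2 had 1 count in each 2D FBS library, which is 0.0287 CPM in SN3593 and 0.0253 in SN3595. In 2D FNHCS it was at 0.285 CPM in SN3593 and 1.15 in SN3595, and in 3D FNHCS at 0.230 in SN3593 and 2.95 in SN3595. It fell in 2D FBS against 3D FNHCS (edgeR adjusted p = 0.0334), with a level in 3D FNHCS 59.5 times that in 2D FBS over both lines (exact 95% counting interval 16.1 to 497). Mx1 was at 1.21 CPM in 2D FBS, 4.94 in 2D FNHCS and 0.864 in 3D FNHCS in SN3593, and at 1.04 in 2D FBS, 5.70 in 2D FNHCS and 7.15 in 3D FNHCS in SN3595. In 3D FNHCS the lines were apart by a log2 ratio of -2.97, and in 2D FNHCS by -0.20. Gbp3 rested on 3 counts in the 3D FNHCS library of SN3593 and 109 in that of SN3595, a ratio of SN3595 to SN3593 of 35.8 (interval 11.9 to 176). In 2D FBS it had 7 counts in SN3593 and 3 in SN3595, whose interval includes equality. SN3593 had Gbp2 at 2.73 CPM in 2D FBS, 0.673 in 2D FNHCS and 0.403 in 3D FNHCS, while SN3595 had it at 1.87 in 2D FBS, 3.12 in 2D FNHCS and 1.82 in 3D FNHCS. Gbp2 was in SN3593 highest in serum, and its 2D FBS libraries lay above both of 3D FNHCS.

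At the membrane, Ifitm3 blocks fusion of viruses in endosomes, Bst2 tethers budding virions, and Rtp4 is a receptor chaperone that restricts RNA viruses. Ifitm3 was at 5.78 CPM in 2D FBS, 4.87 in 2D FNHCS and 16.1 in 3D FNHCS in SN3593, and at 1.65 in 2D FBS, 37.9 in 2D FNHCS and 129 in 3D FNHCS in SN3595. SN3595 had its highest level in 3D FNHCS and its lowest in serum, a log2 ratio of 2D FBS to 3D FNHCS of -6.25, beside -1.47 in SN3593. The lines changed places in serum, where SN3593 was higher by 1.78 on the log2 scale. SN3593 had Rtp4 at 1.64 CPM in 2D FBS, 3.26 in 2D FNHCS and 6.51 in 3D FNHCS, while SN3595 had it at 3.11 in 2D FBS, 32.2 in 2D FNHCS and 47.9 in 3D FNHCS. In each line the order was serum, flat FNHCS, drops from low to high, and in each condition SN3593 was the lower line. Bst2 levels in 2D FBS were 112 CPM in SN3593 and 93.5 in SN3595, in 2D FNHCS 118 in SN3593 and 253 in SN3595, and in 3D FNHCS 121 in SN3593 and 199.6 in SN3595. The SN3593 libraries were within 10 CPM of each other, and the FNHCS libraries of SN3595 stood above the rest. None of the 3 was called between conditions without the block; with it Rtp4 was lower in 2D FBS than in 3D FNHCS.

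Rsad2 was called lower in serum than in either FNHCS condition. It encodes viperin, which makes a chain-terminating nucleotide from CTP, and its neighbour Cmpk2 supplies that CTP. Rsad2 was at 1.06 CPM in 2D FBS, 5.51 in 2D FNHCS and 40.7 in 3D FNHCS in SN3593, and at 0.354 in 2D FBS, 19.0 in 2D FNHCS and 36.5 in 3D FNHCS in SN3595. The 3 conditions did not overlap, and the log2 ratio of SN3593 to SN3595 was 1.45 in 2D FBS, -1.78 in 2D FNHCS and 0.16 in 3D FNHCS. Rsad2 fell by 5.78 on the log2 scale in 2D FBS against 3D FNHCS (SE 0.79, edgeR adjusted p = 0.00322) and fell by 4.13 against 2D FNHCS (SE 0.75, edgeR adjusted p = 0.0260). In 2D FNHCS against 3D FNHCS the log2 fold change was -1.65 ± 0.64 (SE, edgeR adjusted p = 0.120). SN3593 had Cmpk2 at 3.62 CPM in 2D FBS, 7.97 in 2D FNHCS and 7.49 in 3D FNHCS, while SN3595 had it at 5.37 in 2D FBS, 18.2 in 2D FNHCS and 19.1 in 3D FNHCS. In each line its 2 FNHCS levels were close and the serum level lower, and it was called lower in serum with the replicate block alone.

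Parp12 was the gene that rose. It encodes a mono-ADP-ribosyltransferase that restricts some RNA viruses, and Parp9 and Parp14 are further members of that enzyme family. Parp12 was at 86.3 CPM in 2D FBS, 34.6 in 2D FNHCS and 14.8 in 3D FNHCS in SN3593, and at 122 in 2D FBS, 70.1 in 2D FNHCS and 39.7 in 3D FNHCS in SN3595. The order of conditions was opposite to that of Irf1 in both lines, and the 2D FBS libraries lay above all others. Parp12 rose by 1.93 on the log2 scale in 2D FBS against 3D FNHCS (SE 0.54, edgeR adjusted p = 0.0324). SN3593 had Parp14 at 6.75 CPM in 2D FBS, 4.53 in 2D FNHCS and 4.35 in 3D FNHCS, while SN3595 had it at 9.12 in 2D FBS, 17.2 in 2D FNHCS and 17.7 in 3D FNHCS. Parp9 levels in 2D FBS were 14.7 CPM in SN3593 and 17.2 in SN3595, in 2D FNHCS 14.7 in SN3593 and 27.8 in SN3595, and in 3D FNHCS 18.0 in SN3593 and 36.0 in SN3595. Both were at least 1.5-fold lower in SN3593 than in SN3595 in either FNHCS condition, by more than in serum, and neither was called between conditions.

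Of the antigen processing genes, Psmb8 and Psmb9 encode catalytic subunits of the immunoproteasome, and Tap1 is one chain of the pump that brings peptides to MHC class I. Psmb8 was at 20.6 CPM in 2D FBS, 15.2 in 2D FNHCS and 68.4 in 3D FNHCS in SN3593, and at 21.8 in 2D FBS, 40.2 in 2D FNHCS and 94.2 in 3D FNHCS in SN3595. Both 3D FNHCS libraries lay above the other 4, and Psmb8 fell by 1.94 on the log2 scale in 2D FBS against 3D FNHCS (SE 0.45, edgeR adjusted p = 0.0172). SN3593 had Psmb9 at 3.28 CPM in 2D FBS, 3.55 in 2D FNHCS and 7.14 in 3D FNHCS, while SN3595 had it at 4.94 in 2D FBS, 10.0 in 2D FNHCS and 20.5 in 3D FNHCS. Tap1 levels in 2D FBS were 32.0 CPM in SN3593 and 37.6 in SN3595, in 2D FNHCS 52.6 in SN3593 and 57.4 in SN3595, and in 3D FNHCS 36.3 in SN3593 and 54.5 in SN3595. Both were at their lowest in 2D FBS in each line, Tap1 by less than 1.5-fold against 3D FNHCS, and neither was called without the block.

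The remaining effectors were Samd9l, which limits translation, Ifi35 and Ifi44, whose actions are less well defined, and Xaf1, which favours cell death. Samd9l was at 52.5 CPM in 2D FBS, 79.1 in 2D FNHCS and 69.3 in 3D FNHCS in SN3593, and at 98.1 in 2D FBS, 145 in 2D FNHCS and 133 in 3D FNHCS in SN3595. The lines were apart by nearly the same factor in each condition, with log2 ratios of SN3593 to SN3595 of -0.90 in 2D FBS, -0.87 in 2D FNHCS and -0.94 in 3D FNHCS. SN3593 had Ifi44 at 5.03 CPM in 2D FBS, 1.17 in 2D FNHCS and 0.662 in 3D FNHCS, while SN3595 had it at 4.18 in 2D FBS, 13.5 in 2D FNHCS and 14.7 in 3D FNHCS. SN3593 had its highest value in serum, and SN3595 its lowest there. Ifi35 levels in 2D FBS were 39.4 CPM in SN3593 and 46.0 in SN3595, in 2D FNHCS 22.2 in SN3593 and 39.3 in SN3595, and in 3D FNHCS 21.2 in SN3593 and 33.5 in SN3595. Xaf1 was at 11.1 CPM in 2D FBS, 5.77 in 2D FNHCS and 13.6 in 3D FNHCS in SN3593, and at 8.66 in 2D FBS, 20.9 in 2D FNHCS and 28.0 in 3D FNHCS in SN3595. Ifi35 had its highest level in 2D FBS in both lines and was called higher than in 3D FNHCS with the replicate block alone, while Xaf1 was not called.

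The gap between the lines was also read by promoter. In 2D FNHCS the median log2 ratio of SN3593 to SN3595 was -1.95 for the 14 genes with a match and -1.19 for the 17 without, in 3D FNHCS -1.71 with and -1.04 without, and in 2D FBS 0.22 with and -0.23 without. The genes were chosen as interferon targets and the window is short, so this is a description.

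Other genes of the pathway were taken from lists of 10 ligands, 6 receptors, 14 kinases, STATs and regulators, 13 genes that induce interferon, 30 further induced genes and 10 of MHC class I. None of the ligands could be tested. None of these 10 interferon genes had more than 4 counts in any library, and together they summed to at most 0.285 CPM. Interferon genes outside this list were not examined. Of the 6 receptor genes none differed by 2-fold between the lines in any condition. Over all genes 3.25% were 2-fold lower in SN3593 in 2D FBS, 6.06% in 2D FNHCS and 4.69% in 3D FNHCS. In the same order 7.37%, 10.5% and 6.19% were 2-fold higher. The median log2 ratio of SN3593 to SN3595 over the 6 genes was -0.09 in 2D FBS, -0.05 in 2D FNHCS and 0.21 in 3D FNHCS. Ifnar1 and Ifnar2, which form the type I receptor, had the lines within 2-fold of each other throughout. Ifnar1 was at 117 CPM in 2D FBS, 184 in 2D FNHCS and 110.1 in 3D FNHCS in SN3593, and at 137 in 2D FBS, 138 in 2D FNHCS and 91.4 in 3D FNHCS in SN3595. SN3593 had Ifnar2 at 76.7 CPM in 2D FBS, 47.0 in 2D FNHCS and 97.2 in 3D FNHCS, while SN3595 had it at 66.5 in 2D FBS, 51.2 in 2D FNHCS and 77.5 in 3D FNHCS. Ifnar2 fell in 2D FNHCS against 3D FNHCS by 0.83 on the log2 scale (SE 0.18, edgeR adjusted p = 0.0295). In 2D FBS against 3D FNHCS 3 of the 6 receptor genes were called higher, where 19.9% of all genes were. Il10rb rose by 1.14, Ifngr1 by 0.71 and Ifngr2 by 0.78 on the log2 scale.

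The feedback inhibitors Socs1 and Socs3 block JAK kinases. Socs1 was at 0.919 CPM in 2D FBS, 2.02 in 2D FNHCS and 11.1 in 3D FNHCS in SN3593, and at 1.37 in 2D FBS, 2.51 in 2D FNHCS and 14.9 in 3D FNHCS in SN3595. SN3593 had Socs3 at 8.30 CPM in 2D FBS, 10.2 in 2D FNHCS and 78.4 in 3D FNHCS, while SN3595 had it at 6.33 in 2D FBS, 8.80 in 2D FNHCS and 75.1 in 3D FNHCS. Each line showed the same order, and both genes fell in 2D FNHCS against 3D FNHCS, Socs1 by 2.52 on the log2 scale (SE 0.34, edgeR adjusted p = 0.00958) and Socs3 by 3.01 (SE 0.21, edgeR adjusted p = 0.00291). In 2D FBS against 3D FNHCS, Socs3 fell by 3.39 and Socs1 also fell. Of the genes that induce interferon, none of the 11 tested was 2-fold lower in SN3593 in any condition. Over all genes 3.25% were in 2D FBS, 6.06% in 2D FNHCS and 4.69% in 3D FNHCS, so 0 of 11 says little. Aim2 was 2-fold higher in SN3593 in 2D FNHCS, with a log2 ratio of 1.40 (10.5% of all genes). The DNA sensor cGAS, listed as E330016A19Rik, fell in 2D FBS against 3D FNHCS by 2.97 on the log2 scale and Tmem173, which encodes its adaptor STING, fell by 1.98, while the RNA sensor Tlr3 rose by 1.68.

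Of the further induced genes, which share the response but are not among the 40, 28 were tested, and 2 were at least 2-fold lower in SN3593 in 2D FBS (3.25% of all genes), 12 in 2D FNHCS (6.06% of all genes) and 15 in 3D FNHCS (4.69% of all genes). Iigp1 was at 0.948 CPM in 2D FBS, 0.932 in 2D FNHCS and 1.53 in 3D FNHCS in SN3593, and at 0.506 in 2D FBS, 13.3 in 2D FNHCS and 41.4 in 3D FNHCS in SN3595. SN3593 had Lgals3bp at 65.2 CPM in 2D FBS, 65.9 in 2D FNHCS and 66.6 in 3D FNHCS, while SN3595 had it at 94.5 in 2D FBS, 170.3 in 2D FNHCS and 222 in 3D FNHCS. Iigp1, a GTPase that attacks parasite vacuoles, stood apart in the FNHCS libraries of SN3595, and Lgals3bp, a secreted glycoprotein, was lower in SN3593 throughout. Isg20, an exonuclease, rose in 2D FBS against 3D FNHCS by 1.67 on the log2 scale (SE 0.45, edgeR adjusted p = 0.0272). Over the 69 tested genes of these lists, edgeR called 10 higher (19.9% of all genes) and 14 lower (20.6%) in 2D FBS against 3D FNHCS. It called 2 higher (5.85% of all genes) and 1 lower (4.77%) in 2D FBS against 2D FNHCS, and 1 higher (8.63% of all genes) and 6 lower (9.77%) in 2D FNHCS against 3D FNHCS. Between the lines it called 0 of the 69, with 20 at an unadjusted p under 0.05 (18.6% of all genes). Of these 19 were lower in SN3593 (9.77% of all genes) and 1 was higher (8.82%). Among the 19 lower genes, 14 were from the 28 further induced genes. B2m encodes the light chain of MHC class I. B2m levels in 2D FBS were 806 CPM in SN3593 and 719 in SN3595, in 2D FNHCS 911 in SN3593 and 1685 in SN3595, and in 3D FNHCS 450.3 in SN3593 and 1065 in SN3595. Its FNHCS levels were lower in SN3593 than in SN3595, and its serum levels were close.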

How the data were processed

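RNA-seq was measured in 6 mouse alveolar organoid libraries, 2 lines in each of 3 conditions, grouped by their treatment labels. The authors deposited expected counts per gene, which are estimated counts that need not be whole, made with RSEM 1.3.1, Bowtie 1.2.3 and build mm9 per the submitters' processing notes. The annotation and the strand setting of the counting were not stated, so a gene and its overlapping or antisense partner may share reads, and expected counts divide shared reads among close relatives such as Oas1a and its copies or the Ifit and Gbp genes.

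Counts were rounded to whole numbers. All 6 libraries were fitted by condition with the quasi-likelihood test of edgeR 4.0.16 (R 4.3.3), after filterByExpr and TMM scaling, with Benjamini-Hochberg adjustment at 0.05 over 14416 genes; 8808 were left out. SE is the size of the log2 fold change over the root of its F statistic. Ratios within a line use TMM-scaled CPM with 2 counts added. Counting intervals (exact, 95%) and the floor of 3 counts cover counting error only. Alternatives were other scalings, DESeq2 1.42.0, limma 3.58.1, no filter, a replicate block, and leaving out each library. The steps were also run on simulated data with known changes by condition or by line. No line difference that changed with condition was simulated.

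Lines pair the samples, being the same cell line in each condition; deviations of same-line libraries correlated at 0.380 between 2D FBS and 2D FNHCS, 0.245 between 2D FBS and 3D FNHCS, and 0.422 between 2D FNHCS and 3D FNHCS. The 40 genes and all lists were chosen with earlier results of these data known. By rule, values in every library are given for each called gene and for the gene of highest mean CPM of each of 10 role groups; any of the 40 may be named. Of 33 further induced genes 30 had a row in the table used. Promoters come from RefSeq; the files' build differs, so no other coordinates are given.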

Additional observations from a re-analysis of the deposited data

Results flagged for a closer look

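In SN3593 the log2 ratio of 2D FBS to 2D FNHCS was 1.57 for Isg15 and 2.06 for Ifi44, against -2.59 for Isg15 and -1.68 for Ifi44 in SN3595. In 2D FBS against 3D FNHCS the log2 ratio was 1.33 for Oas1a and 2.83 for Ifi44 in SN3593, against -1.72 for Oas1a and -1.80 for Ifi44 in SN3595. These drew attention because the lines moved at least 2-fold in opposite directions. The difference was not tested for these ratios, since each line has 1 library per condition.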

How the results depend on the processing

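With the replicate block, edgeR called 4179 genes and 6 of the 40 in 2D FNHCS against 3D FNHCS (2652 and 1 without it), 2694 and 12 in 2D FBS against 2D FNHCS (1531 and 2 without it), and 18 of the 40 in 2D FBS against 3D FNHCS (9 without it). DESeq2 called 4183 genes and 3 of the 40 in 2D FNHCS against 3D FNHCS, and 3147 and 6 in 2D FBS against 2D FNHCS. It called 15 of the 40 in 2D FBS against 3D FNHCS, where edgeR called 9. The 40.5% of all genes called there is edgeR's share and is no background for the DESeq2 count. For SN3593 against SN3595, DESeq2 called 747 genes and 19 of the 40. Without the filter the lines gave 73 genes and 3 of the 40, and with upper-quartile scaling, library size alone or no condition term 0 genes. In 2D FNHCS against 3D FNHCS, upper-quartile scaling and limma-voom gave 2 of the 40, and library size alone or a fit of those 2 conditions 0. In 2D FBS against 2D FNHCS, library size alone gave 4 of the 40, limma-voom 1, and a fit of those 2 conditions 821 genes and 1 of the 40. Counts over all genes by library size alone are given below. They are not given for limma-voom, nor for upper-quartile scaling and the fit of 2 conditions in 2D FNHCS against 3D FNHCS. Those counts of the 40 thus have no background here.

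Leaving out each library gave 628 to 1805 genes and 0 to 2 of the 40 in 2D FNHCS against 3D FNHCS, 91 to 1234 genes and 0 to 2 of the 40 in 2D FBS against 2D FNHCS, 3187 to 5975 genes and 2 to 13 of the 40 in 2D FBS against 3D FNHCS, and 0 genes for the lines. Counted past 1.5-fold, 24 of the 40 differed in SN3593 (49.1% of all genes) and 16 in SN3595 (48.1%) in 2D FNHCS against 3D FNHCS, and 24 in SN3593 (48.2%) in 2D FBS against 2D FNHCS, where library size alone gave 17 past 2-fold (32.9%). None of the called genes reversed. By library size alone the calls split into 1885 higher and 1137 lower in 2D FNHCS against 3D FNHCS (1244 and 1408 with TMM) and 625 higher and 1474 lower in 2D FBS against 2D FNHCS (843 and 688 with TMM; 701 and 914 with upper-quartile factors), and the median of all genes moved from 0.03 to 0.19 and from -0.06 to -0.33 on the log2 scale. The cause was not tested. With 2 libraries per condition, and few counts for Oas2, Zbp1, Mx2 and Gbp3, smaller changes would not be detectable.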
